A study of Mus musculus with 12 samples.

Results

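Imprinted genes were examined in the RNA-seq libraries of *Stella*-knockout and *Stella*-overexpressing FGSCs. Their members were 40 mouse genes with published parent-of-origin expression, named by symbol and found in the count table through the RefSeq accessions of its rows. All 40 were present, with 111 of the 41388 listed transcripts, among 24809 genes with a symbol. *Nespas* was found under its RefSeq name Gnasas1.

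An imprinted gene is transcribed mainly from the maternal or mainly from the paternal chromosome, because DNA methylation set in the egg or the sperm marks a control region nearby. Most imprinted genes lie in clusters that share such a region, often with a long noncoding RNA that silences its neighbors in cis. The marks are erased in primordial germ cells and set anew in growing oocytes. STELLA protects maternal methylation after fertilization, and ZFP57 with TRIM28 keeps the marks in place in early embryos. The counts do not separate the parental alleles, so the levels below are sums over both.

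The cells were mouse C57BL/6 FGSCs beyond passage 20, grown on inactivated STO fibroblast feeders in a medium with serum, LIF, EGF, bFGF and GDNF. The 4 groups of 3 libraries were a CRISPR/Cas9 *Stella*-knockout line (KO), its control (KO-con), a line with lentiviral *Stella* (Over) and a line with the empty lentiviral vector (Over-con). KO was infected with lentivirus carrying the guide RNAs and was 1 randomly chosen single-cell clone, so the knockout and the clone cannot be told apart. What the control of the knockout had received is not given in the sources used here. Over and Over-con were selected with puromycin. No source says that the 3 libraries of a group came from separate cultures, so p-values measure the spread between libraries, which may be technical.

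Totals lay between 5611846 and 12866545 counts per library. *Stella* (listed as Dppa3) had 28.8 to 32.1 CPM (the count relative to the TMM-scaled library size) in Over and 0 counts in the other 9 libraries, so the table holds no check of the knockout. Of 12 germ cell markers 4 were detected, *Ifitm3*, *Sycp3*, *Prdm1* and, in Over, *Stella* itself. *Ddx4*, *Dazl* and *Pou5f1*, each with 2 listed transcripts, had at most 1 count over all libraries, and *Figla* and *Stra8*, with 1 listed transcript, had 0 and 1. As set out below, a count near 0 can be read only for the latter kind. *Ifitm3* was the germ cell marker with the most counts, at group means of 95.3 to 154.0 CPM. Of 12 fibroblast markers 9 were detected, *Col1a2* at 523.1 to 677.4 CPM, with *Pdgfrb* (2 listed transcripts) at 0. All 7 haematopoietic markers were detected, *Laptm5* at 801.8 to 1001 CPM. Of 10 mast cell markers 4 were detected, *Cpa3* at 400.5 to 1170 CPM. *Fcer1a* and *Tpsab1*, with 1 listed transcript each, and *Ms4a2*, with 4, were at 0. *Xist*, with 2 listed transcripts, had 85 counts over the 12 libraries and the 4 genes of the Y chromosome had 0. Of these, *Ddx3y* and *Kdm5d* have 1 listed transcript, and *Eif2s3y* and *Uty* have more.

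The imprinted genes that carry the results below are *Plagl1*, *Igf2r* and *Cd81*, which passed a test, and *Peg3* and *Zrsr1*, which had many counts and passed none. The 250 bases before the start site of each are shown so that the promoters can be compared. The windows came from RefSeq (GRCm38.p6), and each had 1 exact match on its chromosome in mm9. RefSeq starts differ from the gene starts of the mm9 annotation used for positions below: the *Zrsr1* window ends before that start, 22873215, and the *Plagl1* window runs past it, 12810497. Capitals mark TGCCGC on either strand (GCGGCA on the strand shown), the core letters that ZFP57 binds when the CpG is methylated. The *Plagl1* window is chr10:12810388-12810637 on the plus strand, *Igf2r* chr17:12962573-12962822 minus, *Cd81* chr7:150238405-150238654 plus, *Peg3* chr7:6683131-6683380 minus and *Zrsr1* chr11:22871755-22872004 plus.
Plagl1: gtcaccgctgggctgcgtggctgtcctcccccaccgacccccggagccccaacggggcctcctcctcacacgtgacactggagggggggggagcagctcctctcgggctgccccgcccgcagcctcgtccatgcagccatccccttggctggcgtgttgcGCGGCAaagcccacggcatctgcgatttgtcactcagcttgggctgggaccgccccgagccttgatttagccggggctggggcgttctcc
Igf2r: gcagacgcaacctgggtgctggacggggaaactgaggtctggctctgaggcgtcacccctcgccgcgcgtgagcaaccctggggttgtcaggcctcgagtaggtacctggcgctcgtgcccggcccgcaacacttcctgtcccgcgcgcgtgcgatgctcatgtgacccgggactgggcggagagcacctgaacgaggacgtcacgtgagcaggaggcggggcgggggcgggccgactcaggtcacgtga
Cd81: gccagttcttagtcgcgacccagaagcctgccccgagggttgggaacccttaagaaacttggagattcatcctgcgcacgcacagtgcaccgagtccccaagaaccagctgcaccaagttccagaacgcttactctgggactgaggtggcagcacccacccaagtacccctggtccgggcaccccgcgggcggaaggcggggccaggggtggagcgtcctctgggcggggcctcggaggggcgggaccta
Peg3: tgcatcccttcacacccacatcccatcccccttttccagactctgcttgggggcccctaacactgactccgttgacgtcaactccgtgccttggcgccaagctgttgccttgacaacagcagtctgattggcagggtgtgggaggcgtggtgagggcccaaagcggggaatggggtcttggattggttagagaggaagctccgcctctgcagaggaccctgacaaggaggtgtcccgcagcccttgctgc
Zrsr1: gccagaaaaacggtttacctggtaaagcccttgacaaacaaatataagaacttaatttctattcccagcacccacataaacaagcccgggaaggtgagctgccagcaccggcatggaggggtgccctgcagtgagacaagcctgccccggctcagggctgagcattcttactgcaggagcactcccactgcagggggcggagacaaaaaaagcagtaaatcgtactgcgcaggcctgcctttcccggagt

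The *Plagl1* window held TGCCGC 1 time and the other 4 windows did not hold it. CpG pairs numbered 19 in the *Plagl1* window, 27 in that of *Igf2r*, 16 in that of *Cd81* and 8 in each of those of *Peg3* and *Zrsr1*. RefSeq promoters were found for 33 of the 40 genes, with 50 windows, and 6 of these (12%) held the letters, against 8.68% of all 32851 windows of 250 bases. The 6 windows belonged to 5 genes, the others being *Meg3*, *Mest*, *Zdbf2* and *Zim1*. Windows of a gene can overlap, as for *Mest* at chr6:30687800-30688049 and chr6:30687803-30688052, which both held the letters. The shares therefore count windows and not separate promoters. The median window of a member held 10 CpG pairs and that of all promoters 6. These are letters within fixed windows, and methylation was not measured in these libraries.

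Of the 40 imprinted genes 16 reached a mean of 1 CPM in at least 1 group, with the counts of their transcripts summed. These were *Igf2r*, *Cd81*, *Peg3*, *Zrsr1*, *Kcnq1ot1*, *Commd1*, *Inpp5f*, *Gnas*, *Peg12*, *Grb10*, *Plagl1*, *Nnat*, *Impact*, *Mkrn3*, *Usp29* and *Airn*. Of the other 24, 15 had some counts and 9 had 0 in all 12 libraries. The floor of 3 counts stood at 0.233 to 0.527 CPM, depending on the library, and speaks to counting error alone.

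A count of 0 had a different reach for different genes. Reads that could belong to several listed transcripts appear to be missing from the table: *Ctcf*, *Setdb1* and *Uhrf1*, which dividing cells use generally, have 2, 3 and 4 listed transcripts and had 0 counts in all 12 libraries. Over all genes 43.9% of those with 1 listed transcript were detected and 26.1% of those with more. Among the imprinted genes 7 of 16 with 1 listed transcript were detected and 9 of 24 with more. How shared reads were treated was not tested here, so a count of 0 in a gene with several transcripts is not read as a low level of the gene. For the same reason a difference in such a gene is read for the transcript tested, not for the gene.

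*H19*, the noncoding RNA of the *Igf2* cluster, *Igf2*, a fetal growth factor, *Meg3*, *Snrpn*, *Peg10*, *Sgce*, *Zdbf2* and *Ddc* are genes of that kind. They have 2 to 9 listed transcripts and had 0 counts, and whether they were expressed cannot be told from this table. *Mest*, *Dlk1*, *Cdkn1c*, *Slc22a18*, *Tspan32*, *Sfmbt2* and *Ube3a* also have several transcripts and had 2 to 49 counts in all.

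The undetected genes with 1 listed transcript can share no reads with another listed transcript of the same gene. Reads shared with a neighboring gene could still be missing, as set out below. *Magel2*, a member of the MAGE family in the cluster deleted in Prader-Willi syndrome, had 0 counts in all 12 libraries, and its neighbor *Ndn* had 3. In the *Dlk1*-*Meg3* cluster of chromosome 12, *Mirg* had 2 counts, *Rtl1* 4 and *Rian* 19 over the 12 libraries. In the *Kcnq1ot1* cluster, *Phlda2*, a brake on placental growth, had 15 counts and *Ascl2*, a transcription factor of the trophoblast, 28. *Zim1* had 3 counts, and *Nespas*, antisense to *Gnas*, had 82 with group means of 0.577 to 0.771 CPM.

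**Figure D1:**
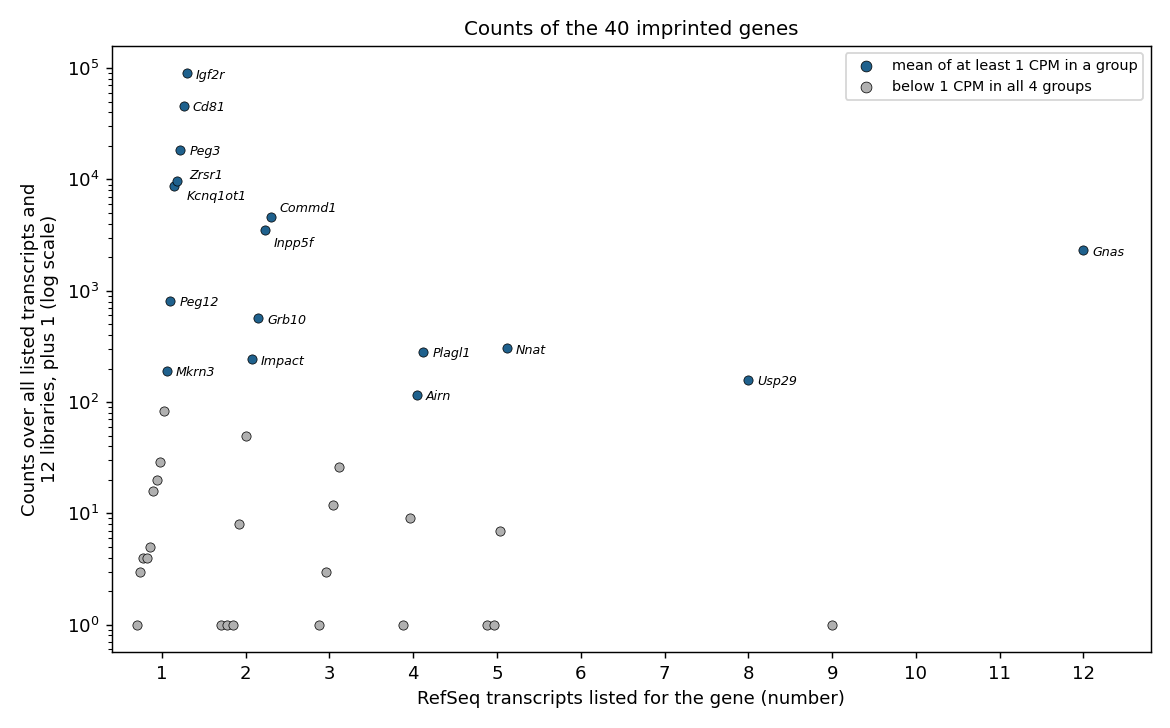
Each point is 1 of the 40 imprinted genes, with the number of its listed RefSeq transcripts on the x axis (points of 1 number are spread sideways) and its counts over 12 libraries plus 1 on a log y axis. The 16 labelled genes reached 1 CPM in a group, and 8 of the 9 points at the bottom, which had 0 counts, have 2 or more listed transcripts.

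Detected genes lay beside undetected ones in several clusters. On distal chromosome 7, *Cd81*, a tetraspanin of the cell surface (mm9 chr7:150238644-150253839), and *Kcnq1ot1*, the paternally transcribed noncoding RNA, were counted in every library, while *Phlda2* and *Ascl2* stayed near the floor. Around *Peg3*, a zinc finger gene of the paternal allele (chr7:6656603-6683132), *Peg3* was counted in every library at 138.7 to 184.0 CPM and *Zim1* had 1 count at most. In the Prader-Willi cluster *Mkrn3* and *Peg12* were detected and *Ndn* and *Magel2* were not. *Airn*, the noncoding RNA that silences *Igf2r* on the paternal chromosome, had mean levels of 1.47 ± 0.394 CPM in Over-con (SD, n = 3) and 0.982 ± 0.322 in Over. KO-con had 0.801 ± 0.315 and KO 0.713 ± 0.369 CPM. Its transcripts fell under the filter for low counts and were not tested.

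Some of these counts could come from a neighboring gene, or be missing where genes overlap. The strand setting of the counting and the treatment of shared reads are not given in the sources used here. In the mm9 annotation, 31.4% of the exonic bases of *Nespas* lie opposite to exons of *Gnas*, and 22.0% of those of *Gnas* lie opposite to other exons. *Zrsr1* lies within *Commd1*, with 6.18% of its exonic bases opposite to exons of *Commd1*, and 29.2% of those of *Commd1* are shared with *B3gnt2* on the same strand. Among the undetected genes with 1 listed transcript, *Mirg* shares 5.1% and *Rian* 1.78% of exonic bases with small RNA genes on the same strand. For *Rtl1* 8.86% lie opposite to microRNA genes. *Igf2r*, *Peg3*, *Plagl1*, *Grb10*, *Magel2*, *Ndn*, *Phlda2*, *Ascl2* and *Zim1* share no exonic base with another gene in this annotation. *Kcnq1ot1* is not in it, and its host *Kcnq1*, antisense to it, had 25 counts over the 12 libraries.

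The levels of the tested transcripts differed little between the groups, apart from *Plagl1*. *Airn*, detected and not tested, is left out here. The 16 transcripts of 15 genes that passed the filter in at least 1 comparison had a highest group mean between 1.12 and 2.48 times the lowest. The widest range belonged to *Plagl1*, with *Nnat* next at 1.56. The narrowest belonged to *Peg12*, *Zrsr1*, *Inpp5f*, *Commd1* and *Kcnq1ot1*, at 1.12 to 1.15.

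**Figure D2:**
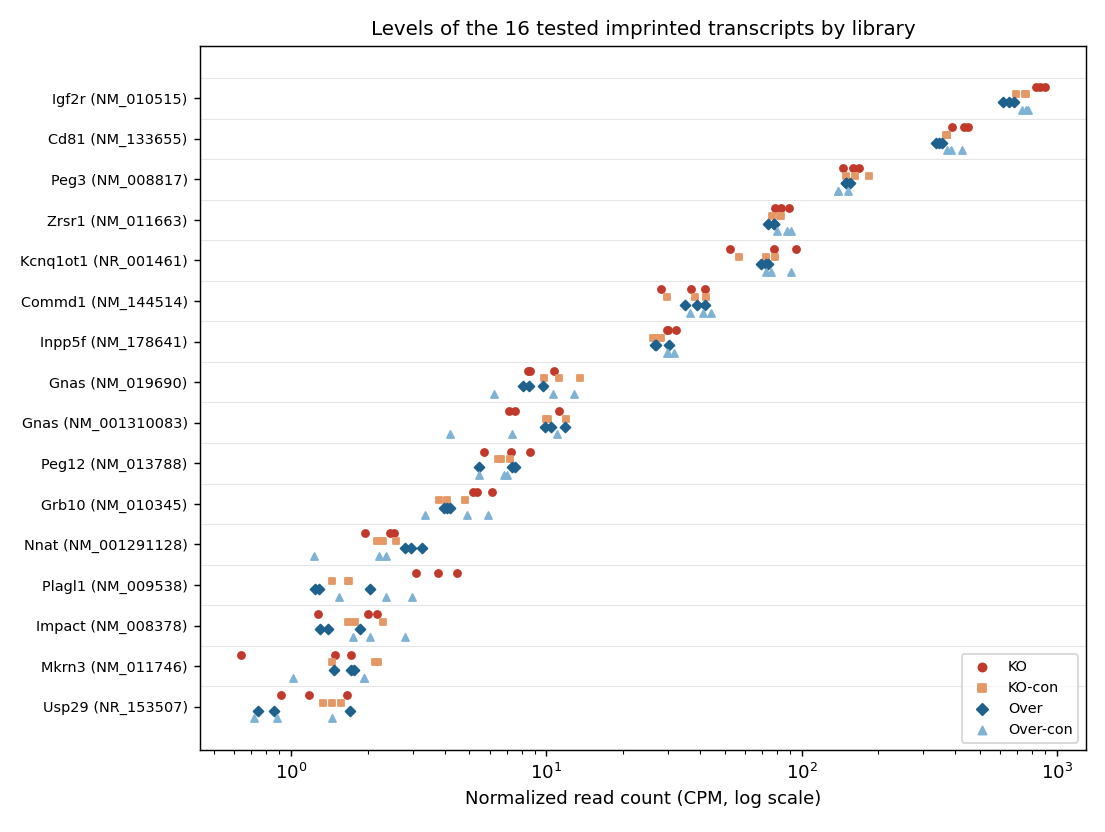
Normalized read counts (CPM, log scale) of the 16 tested imprinted transcripts, 1 point per library in 4 groups of 3. KO points of *Igf2r* and *Plagl1* lie to the right of all other points of their row, and the groups overlap in most other rows; CPM are not per length, so rows are not to be compared with each other.

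The knockout line was compared with its control, KO against KO-con, and *Stella* had 0 counts in both groups. The knockout effect below is the difference between these groups, and whether it follows from loss of *Stella* was not tested. *Plagl1*, a zinc finger transcription factor that regulates other imprinted genes and restrains growth, and *Igf2r*, the receptor that carries IGF2 and mannose-6-phosphate enzymes to lysosomes, were higher in KO. They were the 2 of 16 imprinted transcripts with an adjusted p under 0.05 in edgeR's quasi-likelihood test, and none was lower. Over all 9457 transcripts tested, 11.8% passed, 5.83% upward and 5.96% downward. With the added condition of an absolute log2 fold change over 1, *Plagl1* alone passed, against 1.7% of all transcripts. The median log2 fold change was 0.02 over the 16 and 0.01 over all transcripts, with 8 of the 16 above 0. An unadjusted p under 0.05 was reached by 3 of the 16 and by 25.4% of all transcripts.

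*Plagl1* (chr10:12810497-12851500) is listed with 4 transcripts, and nearly all its counts fell on NM_009538. If reads shared between its transcripts are missing, the values below speak for this transcript and not for the level of the gene. In KO this transcript had 33, 51 and 34 counts, or 3.78, 4.46 and 3.09 CPM. In KO-con it had 16, 19 and 12 counts, or 1.67, 1.69 and 1.45 CPM. The lowest KO library lay above the highest KO-con library. On the log2 scale KO was higher by 1.23 (standard error 0.28, adjusted p = 0.00862, edgeR), from a mean of 1.60 ± 0.132 to 3.77 ± 0.685 CPM (SD, n = 3). Without KO replicate 2 it was 1.09 with an adjusted p of 0.0564. Against Over-con in place of KO-con it was 0.77 with an adjusted p of 0.166, and the KO libraries still lay above those of Over-con, at 2.35, 2.98 and 1.54 CPM.

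*Igf2r* (chr17:12875272-12962530, transcript NM_010515) had 832.9, 860.8 and 901.5 CPM in KO and 758.3, 749.2 and 694.9 CPM in KO-con. The groups did not overlap, and the difference was small, 0.24 on the log2 scale (adjusted p = 0.0332 in edgeR, standard error 0.07). The call needed nearly all libraries: without KO replicate 2 or 3, or any 1 of the KO-con libraries, the adjusted p was 0.0824 to 0.139. With the replicate number as a block it was 0.0992, and against Over-con 0.166 with a log2 fold change of 0.19.

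Fibroblast markers, which could come from the feeders, varied within KO. The sum of the 12 was 1585, 1845 and 1288 CPM in KO and 1504, 1390 and 1609 CPM in KO-con. The mast cell sum, nearly all of it *Cpa3*, was 1156 to 1228 CPM in KO and 367.5 to 433.9 CPM in KO-con. The haematopoietic sum was 1070 to 1246 and 990.3 to 1126 CPM. That of the germ cell markers, nearly all of it *Ifitm3*, was 79.3 to 120.8 and 115.6 to 138.7 CPM. It is read for that gene and not as a content of germ cells. Single markers differed as well. *Cd48*, a surface protein of blood cells, had at most 0.0908 CPM in KO and 1.77 to 3.86 CPM in KO-con. *Prdm1* was lower in KO (log2 fold change -2.48, adjusted p = 0.00147 in edgeR), as was *Pdgfra* on NM_001347719 (-1.56, 0.00998). *Cpa3* (1.55, 2.62e-09), *Cma1* (1.79, 0.00834), *Hdc* (1.30, 0.0267) and *Fbn1* (0.45, 0.00321) were higher. Their part in the differences of *Plagl1* and *Igf2r* was not tested. In bulk libraries fewer cells of a type and less RNA per cell cannot be told apart.

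Of the imprinted genes that did not pass in the knockout, *Cd81* came closest. It had 388.6, 433.5 and 448.5 CPM in KO and 370.0, 367.2 and 372.2 CPM in KO-con, a log2 fold change of 0.20 (adjusted p = 0.0799 in the same edgeR fit). Without KO replicate 1 it was 0.26 with an adjusted p of 0.0099, and scaled by library totals 0.24 with 0.0265. *Grb10*, an adaptor that dampens insulin and IGF signaling, had 5.15, 6.12 and 5.36 CPM in KO and 4.80, 3.81 and 4.10 CPM in KO-con (log2 fold change 0.40, adjusted p = 0.237). *Inpp5f*, an inositol phosphatase, lay between 29.8 and 32.1 CPM in KO and between 26.3 and 28.1 CPM in KO-con (0.18, adjusted p = 0.271). With *Plagl1* and *Igf2r* these made 5 of 16 transcripts with KO and KO-con free of overlap, all higher in KO, while 30.1% of all transcripts tested did not overlap.

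*Gnas*, the locus of the stimulatory G protein alpha subunit, was counted on NM_019690 and NM_001310083 out of 12 listed transcripts. Their log2 fold changes were -0.31 (adjusted p = 0.257) and -0.33 (adjusted p = 0.296). NM_001310083 had 11.2, 7.51 and 7.17 CPM in KO and between 10.0 and 12 CPM in KO-con, and the groups overlapped through KO replicate 1. Without that library its log2 fold change was -0.55 with an adjusted p of 0.0459 in edgeR. *Mkrn3*, a ring finger gene whose loss brings early puberty, had 1.72, 1.48 and 0.635 CPM in KO and 2.19, 2.13 and 1.45 in KO-con (-0.62, adjusted p = 0.341).

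The remaining transcripts had differences smaller than their standard errors. *Peg3* averaged 157.9 ± 11.8 CPM over the KO libraries and 165.5 ± 17.2 over those of KO-con (SD, n = 3), with -0.06 on the log2 scale and a standard error of 0.08. *Zrsr1*, the paternally expressed splicing factor gene inside *Commd1*, had a log2 fold change of 0.06 with a standard error of 0.08, and *Commd1* itself -0.03 with 0.14. *Kcnq1ot1* had 95.3, 78.3 and 52.5 CPM in KO against 72.5, 78.6 and 56.7 CPM in KO-con, so its spread within KO was wider than the difference of the means. *Peg12*, *Nnat*, *Usp29* and *Impact* had log2 fold changes between -0.18 and 0.11 with standard errors of 0.19 to 0.36.

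The effect of *Stella* gain was addressed by Over against Over-con. No imprinted transcript passed in edgeR's test, 0 of 15, and 1.65% of all 9401 transcripts did, 0.766% upward and 0.883% downward. With an absolute log2 fold change over 1 as well, 0.17% of all transcripts passed. An unadjusted p under 0.05 was reached by 3 of the 15, *Igf2r*, *Cd81* and *Zrsr1*, all lower in Over, and by 13% of all transcripts. DESeq2 called 1, *Igf2r*. The median log2 fold change was -0.13 over the 15 and 0.00 over all transcripts, with 10 of the 15 below 0. Groups did not overlap for 4 of the 15 and for 19.1% of all transcripts.

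*Igf2r* had 652.8, 678.9 and 615.4 CPM in Over and 769.0, 760.6 and 730.0 CPM in Over-con. Every Over library lay below every Over-con library, at -0.22 on the log2 scale (adjusted p = 0.0831 in edgeR, standard error 0.06). DESeq2 gave the same log2 fold change with an adjusted p of 0.0276, and edgeR without Over-con replicate 3 gave -0.24 with 0.005. *Cd81* had 346.6, 355.5 and 337.1 CPM in Over against 383.9, 371.1 and 424.3 CPM (log2 fold change -0.19, adjusted p = 0.182). *Zrsr1* had 78.1, 77.9 and 73.9 CPM against 90.7, 87.8 and 79.8 CPM (-0.17, adjusted p = 0.337).

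Among the transcripts with few counts, *Nnat*, a small membrane protein gene of the paternal allele, had 2.96, 3.26 and 2.79 CPM in Over against 2.35, 1.23 and 2.22 CPM in Over-con. Its groups did not overlap and it was at 0.57 on the log2 scale (adjusted p = 0.413, standard error 0.28). *Plagl1* had 22, 16 and 12 counts in Over and 23, 17 and 16 in Over-con, a group that holds the shallowest library, and it was at -0.54 on the log2 scale (adjusted p = 0.549, standard error 0.35). The *Gnas* transcript NM_001310083 had 9.90, 11.9 and 10.4 CPM in Over against 7.35, 4.21 and 11 CPM in Over-con (0.44, adjusted p = 0.422). Without Over-con replicate 3 its log2 fold change was 0.81 with an adjusted p of 0.0141 in edgeR. *Peg3*, with 151.3 ± 3.62 CPM in Over and 143.2 ± 7.67 in Over-con (SD, n = 3), had a log2 fold change of 0.07 with a standard error of 0.07.

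Fibroblast markers summed to 1740 to 1834 CPM in Over and 2023 to 2184 CPM in Over-con, and haematopoietic markers to 1109 to 1180 and 1249 to 1362 CPM. The mast cell sum, nearly all of it *Cpa3*, was 646.4 to 670.7 and 753.1 to 860.4 CPM. The germ cell sum without *Stella*, nearly all of it *Ifitm3*, was 118.7 to 134.9 and 152.0 to 165.4 CPM. All 4 sums were lower in every Over library than in every Over-con library, as were *Igf2r*, *Cd81* and *Zrsr1*, and their part in those differences was not tested. Among single markers *Col6a1* (log2 fold change -0.40, adjusted p = 0.00492 in edgeR), *Fbn1* (-0.38, 0.0177), *Cpa3* (-0.30, 0.0247) and *Ifitm3* (-0.31, 0.0396) were lower in Over. The other tested mast cell markers, *Hdc* (0.82, adjusted p = 0.267 in edgeR) and *Gata2* (0.63, 0.583), were higher in Over without passing.

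Whether the knockout and overexpression effects differed was tested with all 12 libraries in 1 edgeR fit. *Igf2r*, *Cd81* and *Plagl1* passed, 3 of 16 imprinted transcripts, where 8.64% of all 9903 transcripts did. All 3 differences were positive, against 4.12% of all transcripts with a positive and 4.52% with a negative call, and *Plagl1* alone exceeded an absolute difference of 1, against 1.9%. For *Igf2r* the knockout effect minus the overexpression effect was 0.46 on the log2 scale (standard error 0.09, adjusted p = 0.00175). For *Cd81* it was 0.39 (standard error 0.09, adjusted p = 0.0124) and for *Plagl1* 1.77 (standard error 0.44, adjusted p = 0.0144). All 3 held in each of 19 alternatives, with adjusted p of 1.47e-05 to 0.0128 for *Igf2r*, 0.00273 to 0.0487 for *Cd81* and 0.00505 to 0.0489 for *Plagl1*. *Gnas* NM_001310083 had -0.77 (adjusted p = 0.155).

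The order of the levels was not the same for the 3 genes. How often such orders occurred over all transcripts was not counted. The KO libraries of *Igf2r* lay above both control groups and the Over libraries below both, with a KO mean of 865.1 ± 34.5 CPM (SD, n = 3), control means of 753.2 ± 20.5 (Over-con) and 734.1 ± 34.3 (KO-con) and an Over mean of 649.1 ± 31.9 CPM. The control groups overlapped. For *Cd81* the means were 423.5 ± 31.2 CPM in KO, 393.1 ± 27.8 in Over-con, 369.8 ± 2.48 in KO-con and 346.4 ± 9.19 in Over, where the Over libraries lay below all others and KO overlapped with Over-con. For *Plagl1* the KO libraries lay above all others, and KO-con, Over and Over-con overlapped.

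**Figure D3:**
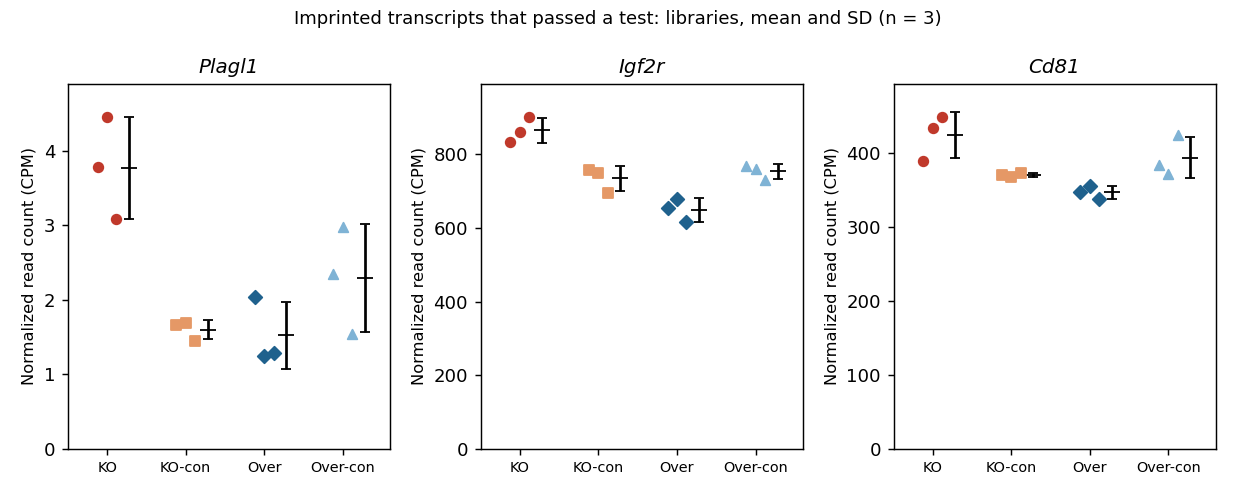
Normalized read counts (CPM) of *Plagl1*, *Igf2r* and *Cd81* in each library of the 4 groups, with the mean and SD of 3 libraries as bars. For *Igf2r* KO lies highest, both controls in between and Over lowest without overlap between these 3 levels; for *Plagl1* only KO stands apart.

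**Figure D4:**
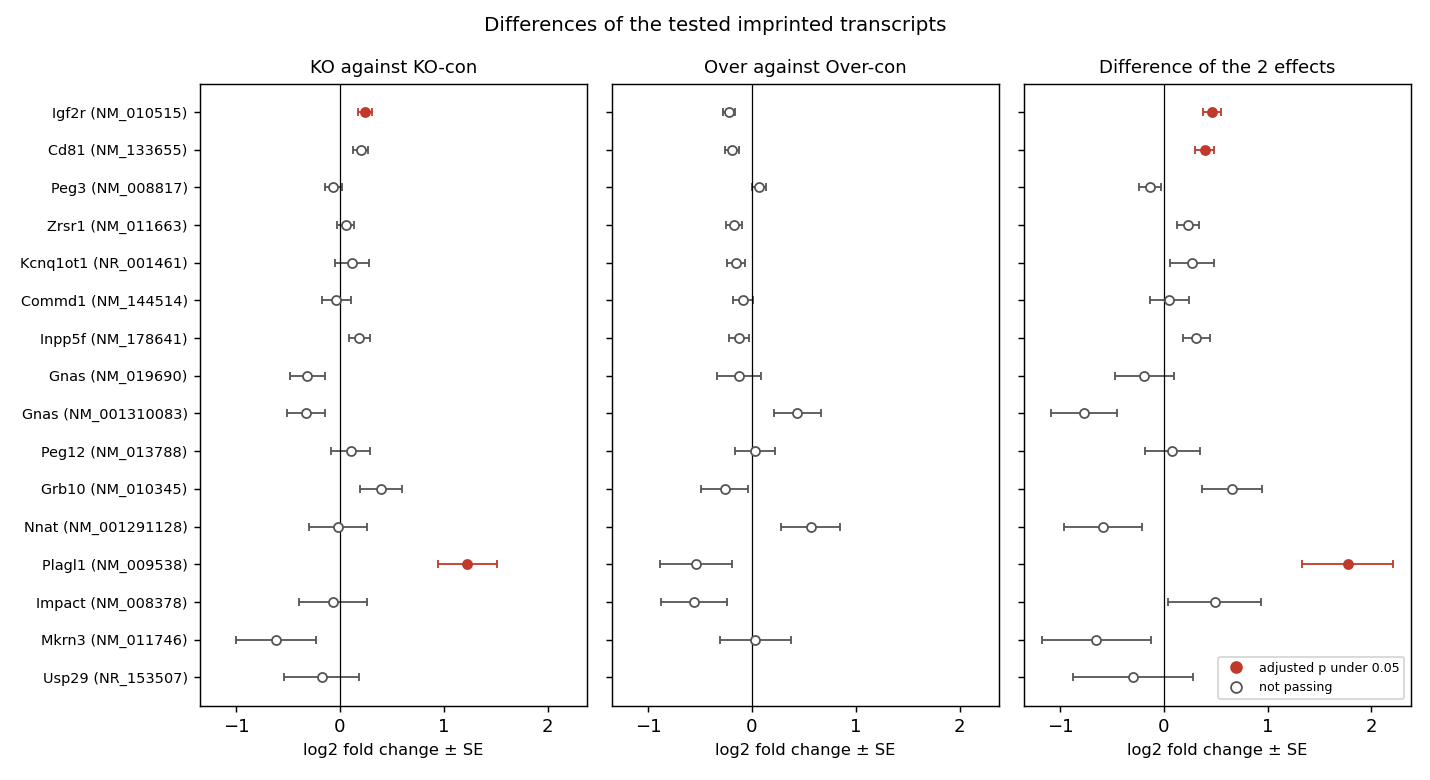
Log2 fold changes with standard errors of the tested imprinted transcripts for the knockout and overexpression comparisons and their difference, filled red where the adjusted p was under 0.05. *Usp29* was not tested in the overexpression; 2, 0 and 3 transcripts passed.

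The control lines were compared with each other as well. KO-con against Over-con gave 0 of 16 imprinted transcripts with an adjusted p under 0.05 in edgeR and 0 in DESeq2, where 16.3% of all 9321 transcripts passed, 8.08% higher and 8.19% lower in KO-con, and 2.16% with an absolute log2 fold change over 1. At an unadjusted p under 0.05 there was 1, *Peg3*, 0.21 higher in KO-con on the log2 scale (adjusted p = 0.0870), against 28.1% of all transcripts. The groups did not overlap for 1 of 16, *Inpp5f*, against 31.7%. Without Over-con replicate 3, *Gnas* NM_001310083 passed with a log2 fold change of 0.82 (adjusted p = 0.0043). Fold changes over the 16 lay between -0.45 for *Plagl1* and 0.47 for *Usp29*.

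Other genes of the imprinted clusters and of their control were read from lists. Of 51 further imprinted genes and neighbors 50 were in the table and 14 were tested with 17 transcripts in the knockout, of which 2 (11.8%) passed, the share of all transcripts tested. *Dhcr7*, the last enzyme of cholesterol synthesis, was higher, with a mean of 40.8 ± 3.34 CPM against 29.7 ± 3.35 CPM (SD, n = 3; log2 fold change 0.46, adjusted p = 0.00934, edgeR). Over-con had 44.2 ± 5.56 CPM, and against it the log2 fold change was -0.12. The call was lost without KO replicate 2 (0.0629) or KO-con replicate 3 (0.0578). *Dcn*, a matrix proteoglycan of fibroblasts that is imprinted in placenta, was lower on NM_001190451 (-0.41, adjusted p = 0.0224 in edgeR), a call lost without KO replicate 3 or KO-con replicate 1 or 3 (0.0509 to 0.117). None of 16 passed in the overexpression by edgeR, against 1.65% of all transcripts, and 2 had an unadjusted p under 0.05, against 13%. Between the controls 2 of 16 passed, against 16.3%. These were *Dhcr7* (-0.57, adjusted p = 0.0013) and *Adam23* (-0.55, 0.00256), both lower in KO-con.

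Factors that keep or set imprints were counted unevenly. Of 28, 10 were tested in the knockout, where 0 passed in edgeR, against 11.8% of all transcripts. An unadjusted p under 0.05 was reached by 2 of the 10, against 25.4%. In the overexpression 12 were tested and *Stella* alone passed (8.33%, against 1.65%). *Stella* was the gene introduced by the vector, so its call was fixed by the design. The share is therefore not read as a result about this list. *Dnmt1*, the maintenance methyltransferase, has 5 listed transcripts and had 66 counts in all, and its level is not read from them. *Trim28*, the corepressor that ZFP57 recruits, has 1 listed transcript. Its KO mean was 394.6 ± 37.8 CPM and that of KO-con 468.4 ± 17.6 CPM (SD, n = 3). Over had a mean of 499.7 ± 11.8 and Over-con of 429.2 ± 20.6 CPM. Its knockout effect was -0.24 (adjusted p = 0.0517) and its overexpression effect 0.21 (adjusted p = 0.105), and their difference was -0.45 (standard error 0.10, adjusted p = 0.00547, edgeR). This difference kept its sign and an adjusted p of at most 0.0219 in 19 alternatives. *Trim28* was named after its values were seen, and was the 1 of 12 tested transcripts of this list to pass for the difference. That share was 8.33%, against 8.64% of all transcripts. *Zfp57* was counted on the noncoding transcript NR_033137, with log2 fold changes of 0.09 in the knockout (adjusted p = 0.740) and 0.33 in the overexpression (adjusted p = 0.347).

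In the IGF growth network 13 of 22 genes were tested in the knockout, where 2 passed (15.4%, against 11.8% of all transcripts), and 13 in the overexpression, where 1 did (7.69%, against 1.65%). *Irs1*, the docking protein of the insulin and IGF1 receptors, was higher in KO than in KO-con, at 41.0 ± 3.15 against 30.5 ± 2.35 CPM (SD, n = 3; log2 fold change 0.43, adjusted p = 0.00987, edgeR), and Over-con had 46.5 ± 0.804 CPM, above both. The call was lost without KO replicate 2 (0.0575) or KO-con replicate 2 (0.0605). *Cdkn1a*, a brake on cyclin-dependent kinases, was lower on NM_007669 (-1.26, adjusted p = 0.0459), a call that was lost with the counts of its 2 transcripts summed (adjusted p = 0.0775) and without KO replicate 1 or 3 or any 1 of the KO-con libraries. *M6pr*, the smaller mannose-6-phosphate receptor, was lower in Over, at 382.5 ± 20.0 against 477.9 ± 43.6 CPM in Over-con (-0.33, adjusted p = 0.0314), and Over lay close to KO-con with 385.3 ± 17.2 CPM. This call was lost without any 1 library other than Over-con replicate 3 (adjusted p of 0.0925 to 0.202). For the difference between effects 2 of 15 passed in edgeR (13.3%, against 8.64% of all transcripts). These were *Irs1* (0.71, adjusted p = 0.00071), which held in 19 of 19 alternatives, and *M6pr* (0.41, 0.0390), which held in 9. Both were also lower in KO-con than in Over-con (-0.61, adjusted p = 0.000136, and -0.31, 0.00855, edgeR).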

How the data were processed

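Poly(A) RNA of mouse FGSCs was sequenced in 12 stranded libraries. After trimming and HISAT2 alignment to mm9, the authors deposited unnormalized read counts per RefSeq transcript; strand setting, annotation release and the treatment of shared reads are not given in the sources used here. Groups and replicate numbers came from the sample titles. Symbols for 41181 of 41388 transcripts were looked up by accession in RefSeq (GRCm38.p6), and gene positions from the GENCODE annotation of mm9. The members and gene lists were chosen with earlier results of these data known.

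KO was compared with KO-con, Over with Over-con, KO-con with Over-con, and the first 2 effects with each other, by edgeR 4.0.16 (TMM, filterByExpr, glmQLFit, glmQLFTest; R 4.3.3) on all transcripts that passed the filter, with Benjamini-Hochberg adjustment. Standard errors were the unshrunk coefficient divided by the root of the F statistic. CPM were scaled by TMM over all 12 libraries, with totals as stated in the text. All tested imprinted transcripts are named, with those of the other lists that passed in the knockout or overexpression, cell type markers included. Alternatives were DESeq2 1.42.0, its size factors or library totals in edgeR, other filters, counts summed per gene, a replicate block, 1 fit of all libraries, the other control group and each library left out. Tests were tested on simulated data. Libraries of a group differed beyond counting noise (chi-square divided by its degrees of freedom, 1.93 to 12.3). Promoters, figures and tables used Python 3.11.15, pandas 2.3.3 and matplotlib 3.10.9. MeDIP, ChIP-seq and Hi-C data were not analysed here.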

Additional observations from a re-analysis of the deposited data

Results flagged for a closer look

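The knockout and overexpression effects differed for 3 imprinted transcripts in the test of the difference itself, edgeR's interaction term over all 12 libraries. The knockout effect minus the overexpression effect, on the log2 scale, was 0.46 for *Igf2r*, 0.39 for *Cd81* and 1.77 for *Plagl1*. KO lay above KO-con in 3 of 3 libraries and Over below Over-con in 3 of 3 for *Igf2r* and *Cd81*. Over all transcripts tested, groups did not overlap for 30.1% in the knockout and 19.1% in the overexpression. The share with both, in opposite directions, was not counted. These positions come from the libraries of the test and add no separate support. For *Plagl1* the Over and Over-con libraries overlapped.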

How the results depend on the processing

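The count of imprinted transcripts passing in the knockout, 2, was 1 with the replicate block (*Plagl1*), 0 with Over-con as the control, 3 with library totals (*Cd81* added) and 0 to 4 with each library left out. It was 0 without KO replicate 2, 4 without KO replicate 1, and 1 without KO replicate 3 or any 1 of the KO-con libraries. In the overexpression the count of 0 became 1 with DESeq2 and 1 with KO-con as the control, *Igf2r* in both cases, and was 0 to 2 with each library left out, 2 without Over-con replicate 3. Between the controls it was 0 to 1, and for the difference between effects 3 to 4. Detected genes numbered 16 without any 1 library and 10 at 5 CPM. Direction reversed for *Irs1* (-0.19) and *Dhcr7* (-0.12) in the knockout against Over-con, and for no other call put through the alternatives. These were the calls of the imprinted genes and, outside the controls, of the neighbor, imprint factor and growth lists. *Stella* and the marker calls were not put through them. By group means *Fbn1* was higher in KO than in KO-con and lower than in Over-con. *Cpa3*, *Cma1*, *Hdc*, *Cd48* and *Prdm1* kept their direction. *Col6a1*, *Fbn1*, *Cpa3* and *Ifitm3*, lower in Over than in Over-con, had higher means in Over than in KO-con. The causes were not tested, and controls that differ from each other enter by construction where the control is exchanged. Same-numbered libraries deviated from their group means with correlations between -0.177 and 0.05 over the 3 pairs of each comparison. The numbers were therefore not taken as pairs. Beside *Igf2r* in the knockout, the replicate block in edgeR ended the calls of *M6pr* in the overexpression (adjusted p = 0.0593) and in the difference (0.0630). It ended no other call put through the alternatives. *M6pr* in the overexpression passed without Over-con replicate 3 alone. Depth limits *Plagl1*, *Mkrn3*, *Usp29*, *Impact* and *Nnat*, with under 60 counts in every library.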
